A study of Mus musculus with 6 samples.

Results

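A set of 10 genes of the NF-kB system were followed in mouse ovarian surface epithelial cells, the single cell layer that covers the ovary, with and without deletion of the Hippo pathway kinases LATS1 and LATS2. They were taken by symbol from a table of 48440 genes and comprise 5 subunit genes (Nfkb1, Nfkb2, Rela, Relb and Rel), 3 inhibitor genes (Nfkbia, Nfkbie and Nfkbiz), the feedback deubiquitinase gene Tnfaip3 and the kinase gene Ikbkb. All 10 members were found and all 10 passed the filter on low counts, as did 14811 genes in all. The controls were 3 libraries of cells labelled WT that had been infected with an adenovirus for GFP (Ad-GFP). The knockouts were 3 libraries labelled Lats1/2 knockout, from cells given an adenovirus carrying Cre recombinase with GFP (Ad-Cre-GFP). Poly(A)-selected RNA was sequenced 1 week after infection. The mouse strain, the age of the animals, the exons that Cre removes and the number of separate cultures were not stated in the labels used here. Cre exposure and deletion coincide in this design and cannot be told apart.

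NF-kB is a family of dimeric transcription factors. In resting cells the dimers are held in the cytoplasm by IkB proteins, and receptors for TNF, interleukin-1 or microbial products activate the IkB kinase complex, which marks IkB for destruction and frees the dimers to enter the nucleus. RELA, REL and RELB carry an activation domain, whereas Nfkb1 and Nfkb2 encode the precursors p105 and p100, which are processed to p50 and p52 and restrain other subunits while unprocessed. Several of the genes that NF-kB switches on, among them Nfkbia, Nfkbie and Tnfaip3, encode its own inhibitors, which gives the pathway its feedback. Protein levels, processing and nuclear entry are not measured by transcript counts.

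Promoter sequences are shown because this feedback is known to run through kappaB sites near the start of these genes. RefSeq promoter windows (GRCm38.p6, 250 bases before to 50 bases after a start site) were found for 6 of the 10 members, and Nfkb1, Relb, Nfkbiz and Ikbkb had no entry. The kappaB consensus, searched on both strands, was present in 5 of these 6 genes (83.3%). It was present in 5.14% of all 27025 genes with a window and 4.51% of all 32851 windows. The set of members includes feedback genes known for such sites, so the difference is no result of these data. The 6 stretches below lie before the start site, 5' to 3' on the strand of the gene, and leave out bases of annotated exons except for Nfkb2, for which 30 bases are given. Capitals mark bases of a consensus match.
Tnfaip3, chr10:19015411-19015547, minus strand: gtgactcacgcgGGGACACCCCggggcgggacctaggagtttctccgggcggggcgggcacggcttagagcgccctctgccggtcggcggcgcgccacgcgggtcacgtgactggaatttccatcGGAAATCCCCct
Rel, chr11:23770971-23771219, minus strand: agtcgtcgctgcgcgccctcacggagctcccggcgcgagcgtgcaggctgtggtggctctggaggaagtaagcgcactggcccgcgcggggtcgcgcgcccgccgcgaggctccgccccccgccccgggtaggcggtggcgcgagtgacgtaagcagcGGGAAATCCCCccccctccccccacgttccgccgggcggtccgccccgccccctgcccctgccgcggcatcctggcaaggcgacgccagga
Nfkbia, chr12:55492648-55492897, minus strand: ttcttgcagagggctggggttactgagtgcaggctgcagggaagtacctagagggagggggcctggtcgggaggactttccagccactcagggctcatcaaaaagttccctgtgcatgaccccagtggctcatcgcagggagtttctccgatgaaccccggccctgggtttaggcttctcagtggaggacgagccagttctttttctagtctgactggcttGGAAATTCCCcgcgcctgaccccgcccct
Nfkbie, chr17:45555450-45555699, plus strand: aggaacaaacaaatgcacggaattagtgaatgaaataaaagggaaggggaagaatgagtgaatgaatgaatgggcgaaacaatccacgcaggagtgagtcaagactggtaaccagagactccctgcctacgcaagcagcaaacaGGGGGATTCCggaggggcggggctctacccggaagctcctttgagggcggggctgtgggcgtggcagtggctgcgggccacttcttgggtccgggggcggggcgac
Nfkb2, chr19:46304689-46304718, plus strand: gatcgtcacGGGAATTCCCCccctcggggg
Rela, chr19:5637291-5637482, plus strand: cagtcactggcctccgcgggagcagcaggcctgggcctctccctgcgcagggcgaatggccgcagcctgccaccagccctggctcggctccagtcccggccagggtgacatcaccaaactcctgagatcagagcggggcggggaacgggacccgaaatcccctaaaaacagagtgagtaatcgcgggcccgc
Matches lay at -125 to -116 and -12 to -3 from the first start of Tnfaip3, -29 to -20 from that of Nfkbia and -106 to -97 from that of Nfkbie. Rel had 2 overlapping matches from -92 to -82, and the first start of Nfkb2 had 2 overlapping matches from -39 to -29 and a further one at -11 to -2. Nfkb2 has 3 starts in the table and Tnfaip3 has 2, of which the first is shown. The window of the second Tnfaip3 start held no match. The window of Rela held no match. A match is a description of the letters and not evidence of binding.

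The libraries held 18690235 to 30304033 counts, and all 3 knockout libraries (at least 27734527) were deeper than the controls. Lats1 fell from 159 ± 8.74 to 37.1 ± 1.36 CPM (counts per 1000000 counts of the library, adjusted by edgeR's TMM factors; mean ± SD, n = 3), and Lats2 from 130 ± 2.16 to 98.7 ± 1.97 CPM. All 12 markers of ovarian surface epithelium and mesothelium were tested and called, 5 higher and 7 lower. Over all genes tested 69.8% were called, 34.0% higher and 35.8% lower, and each marker count here stands against that background. Krt8 and Cdh1 were at 350.3 and 1314 CPM in controls and at 306 and 971 CPM in knockouts. Krt19 went from 560 to 185 CPM, Gata4 from 273 to 106 and Wt1 from 201 to 90.6. Bnc1 fell from 284 to 160 CPM and Lhx9 from 0.623 to 0.297. Msln rose from 413 to 887 CPM, Upk3b from 42.6 to 88.3 and Upk1b from 422 to 584. Krt18 went from 564 to 596 CPM and Krt7 from 1.86 to 4.91. The 4 stromal markers tested of 6 all fell, by unlike amounts. Dcn went from 93.0 to 24.7 CPM and Col1a1 from 291 to 261 CPM. Pdgfra (from 0.813 to 0.196 CPM) and Dpt (from 0.439 to 0.0228 CPM) were low. Lum had 0 counts and Col1a2 no more than 4 in any library. Both endothelial markers tested of 6 rose (Flt1 from 2.77 to 8.48 CPM, Kdr from 4 to 173 counts), with Tie1 at 0 and Pecam1 at no more than 8 counts in any library. Of 5 granulosa markers 3 were tested, 2 higher and 1 lower. The part of these marker changes in the results on NF-kB genes was not tested. Of 12 immune cell markers, Adgre1, Laptm5 and Tyrobp had 0 counts in all 6 libraries and only Cd14 and Cd68 were high enough to test. Without TMM scaling the immune markers summed to 11.6 to 13.9 CPM in controls and 7.06 to 7.57 CPM in knockouts, the stromal ones to 380 to 398 and 271 to 291 CPM, the endothelial ones to 3.05 to 3.15 and 10.02 to 11.5 CPM, the granulosa ones to 3.26 to 3.85 and 2.99 to 4.08 CPM, and the epithelial and mesothelial ones to 4464 to 4487 and 3910.2 to 3944 CPM. Most of the immune sum was Cd14, which fell from 9.46 to 4.01 CPM, while Cd68 was at 2.81 and 2.76 CPM and was not called. The shallowest library, Ad-GFP replicate 3, was separated from both other controls by the second principal component, so values without it are given below.

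All 10 members passed the test (edgeR quasi-likelihood test, Benjamini-Hochberg adjusted p under 0.05), 7 higher and 3 lower in the knockout. This count must be read against a background of 69.8% of tested genes called, 34.0% higher and 35.8% lower, so that a call in itself sets no member apart. The members' median absolute log2 change was 0.84, against 0.35 over all genes tested, and the median signed change was 0.69, against -0.01. For all 10 genes the 3 knockout libraries lay entirely above or entirely below the 3 controls, which was true of 73.0% of tested genes. In bulk RNA, a change in the share of cells that express a gene and a change in RNA per cell cannot be told apart.

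**Figure D1:**
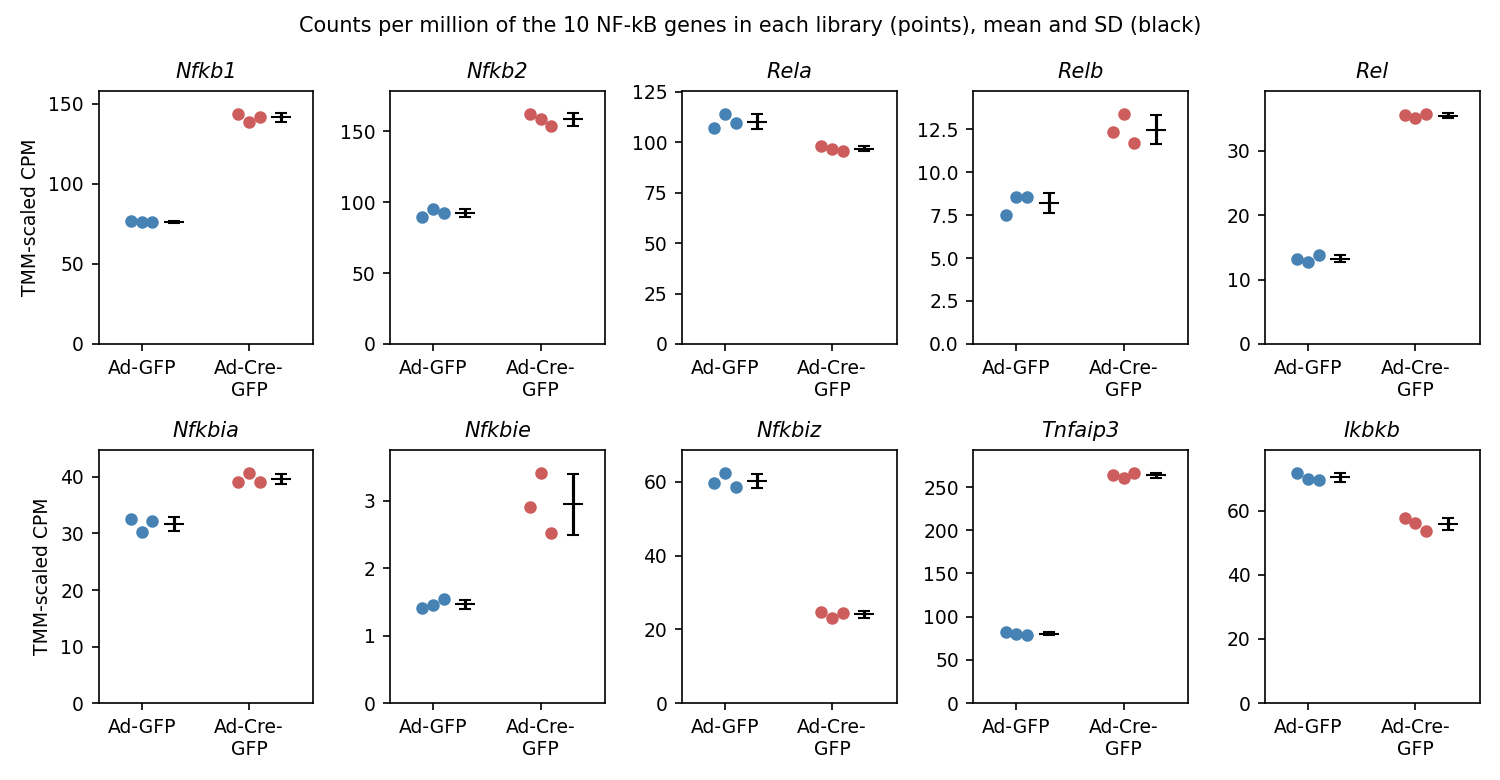
TMM-scaled CPM (vertical axis, from 0) of each NF-kB gene in the 3 Ad-GFP libraries (blue) and the 3 Ad-Cre-GFP libraries (red), with mean ± SD in black. The 2 groups are separate in every panel. As a ratio of means they are farthest apart for Tnfaip3 (80.5 against 264 CPM) and closest for Rela (110 against 96.9 CPM).

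Among the subunits, 4 rose and Rela fell. Rel, which encodes c-Rel, a subunit best known from lymphoid cells, stood at 13.2, 12.8 and 13.8 CPM in the controls and at 35.5, 35.0 and 35.8 CPM in the knockouts. The knockout libraries differed from each other by less than 1 CPM, and the level was 2.67-fold that of the controls (log2 change 1.42 ± 0.06 SE, adjusted p = 1.08e-15). Only 3.39% of tested genes had a larger rise. Among immune markers too low to test, Ptprc, which marks all leukocytes, had 3 counts over the controls and 8 over the knockouts. Cd79a had 9 and 21, whereas Fcer1g had 20 and 17 and Cd3e 3 and 2. The part of immune cells in the rise of Rel was not tested.

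Nfkb1, the gene of p105 and p50, measured 76.5, 75.9 and 75.8 CPM in the controls and 144, 139 and 142 CPM in the knockouts. The controls agreed to a coefficient of variation of 0.521%, and the rise was 1.86-fold (0.89 ± 0.03, adjusted p = 2.92e-16). Nfkb2, the gene of p100 and p52, measured 89.2, 95.2 and 92.1 CPM in the controls against 162, 159 and 154 CPM in the knockouts, 1.72-fold (0.78 ± 0.03, adjusted p = 9.63e-15). Its locus shares exon bases with genes on the opposite strand, 299 bases with Psd and 531 bases with the noncoding gene AC114539.1. Psd had 2610 counts over all 6 libraries, not split by group here, and AC114539.1 was not among the genes counted. Nfkb2 itself had 6127 counts over the controls and 13704 over the knockouts. Since the strand setting of the counting was not stated, the part of Nfkb2 counts from that overlap is uncertain.

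Relb, the partner of p52 in the non-canonical branch, was a low-level transcript with 165, 218 and 161 counts in the controls and 360, 401 and 321 in the knockouts. In CPM these were 7.52, 8.53 and 8.53 against 12.3, 13.4 and 11.7, a rise of 1.52-fold (0.61 ± 0.08, adjusted p = 1.28e-06). Its replicates were looser than those of the other subunits, with coefficients of variation of 7.12% and 6.91%. Rela, the gene of the p65 subunit of the classical dimer, went the other way. It measured 107, 114 and 109 CPM in the controls and 98.3, 96.6 and 95.7 CPM in the knockouts. The knockout mean was 87.8% of control (-0.19 ± 0.03, adjusted p = 3.84e-05), the smallest change among the 10 genes.

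The share of Rela in the subunit transcripts fell and those of the other 4 rose, most in percentage points for the 2 precursor genes. Rela CPM was at 87.8% of control, so the fall of its share also holds the rise of the other subunits. Levels of different genes were compared as CPM per kilobase of annotated exon. Rela held 54.2%, 54.6% and 53.9% of the summed subunit CPM per kilobase in the controls and 36.7%, 36.7% and 37.0% in the knockouts, a difference of -17.5 percentage points. The share of Nfkb2 went from 30.4% ± 0.129 to 40.3% ± 0.412, that of Nfkb1 from 9.53% ± 0.307 to 13.7% ± 0.266, and that of Rel from 2.68% ± 0.155 to 5.54% ± 0.130 (SD, n = 3). Relb held 3.18% ± 0.164 and 3.75% ± 0.247. With this length the groups did not overlap for any subunit. An exact two-sided permutation test gave p = 0.1 for each, also when adjusted over the 5 subunits, which is the smallest value that 3 against 3 libraries allow. The size of a share depends on the length used. The exon union of Nfkb1 (12061 bases) is far longer than its longest transcript (4149 bases), and with the longest transcript Nfkb1 held 21.0% of subunit transcripts in controls and 28.5% in knockouts, and Rela 46.6% and 29.9%.

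**Figure D2:**
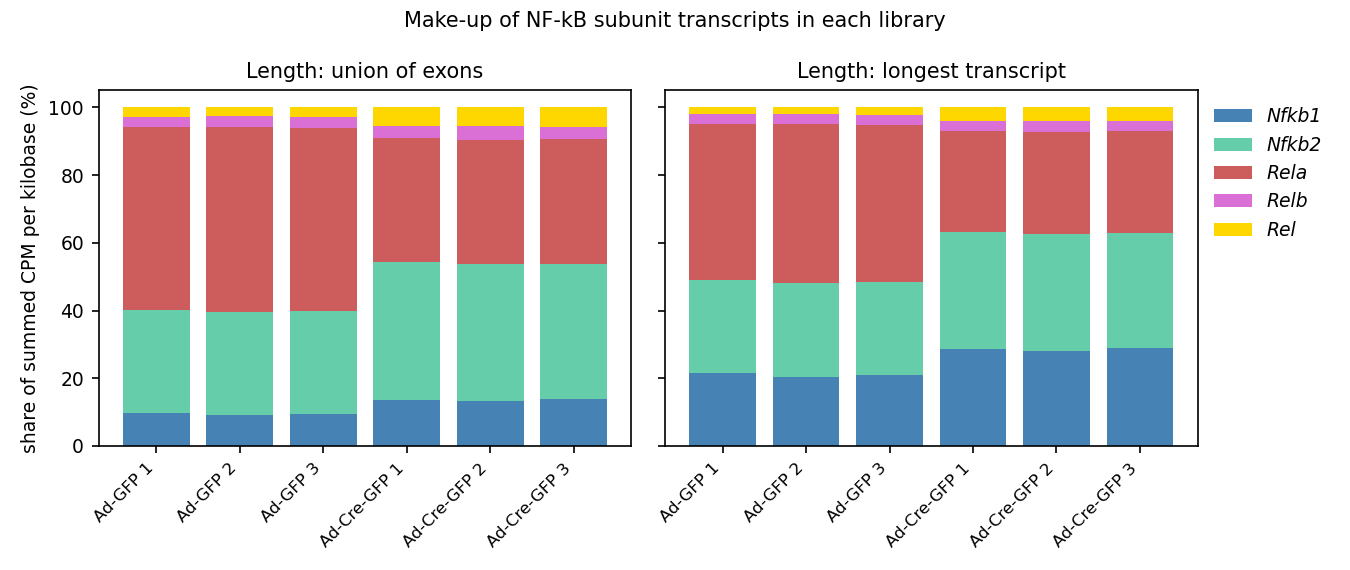
Share of each subunit gene (colours) in the summed CPM per kilobase of the 5 subunits (vertical axis, percent), for each of the 6 libraries (bars), with length taken as the union of annotated exons (left) or the longest transcript (right). On both scales the Rela share is smaller in every Ad-Cre-GFP library, 36.8% against 54.2% on the left and 29.9% against 46.6% on the right.

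The inhibitor genes did not move as a group. Nfkbia, which encodes IkB-alpha, the inhibitor that is destroyed and remade within one round of signalling, measured 32.5, 30.3 and 32.2 CPM in the controls and 39.2, 40.7 and 39.2 CPM in the knockouts. This was a rise of 1.25-fold (0.33 ± 0.05, adjusted p = 2.34e-06), near the median absolute change of all genes tested. Nfkbie, which encodes IkB-epsilon, was the lowest member, with 31, 37 and 29 counts in the controls and 85, 102 and 69 in the knockouts. It rose 2.01-fold, from 1.47 ± 0.0641 to 2.95 ± 0.448 CPM (1.01 ± 0.17, adjusted p = 2.52e-05). Its knockout libraries had the widest spread of any member (coefficient of variation 15.2%), and the lowest of them, 2.52 CPM, was above the highest control, 1.54 CPM.

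Nfkbiz encodes IkB-zeta, an atypical nuclear IkB that binds p50 and is needed for a subset of secondary response genes. It measured 59.8, 62.4 and 58.6 CPM in the controls and 24.7, 23.0 and 24.5 CPM in the knockouts. The knockout mean was 39.9% of control (-1.33 ± 0.05, adjusted p = 1.90e-16), and 4.68% of tested genes fell further. It was the only one of the 10 genes lower by at least 2-fold, a size of fall called for 7.56% of all genes tested. Transcripts per kilobase of Nfkbia, Nfkbie and Nfkbiz were summed and set over those of the subunit genes, with Nfkb1 and Nfkb2 among the latter. Nfkbiz was placed with the inhibitors by family only. The ratio was 0.505, 0.466 and 0.487 in the controls and 0.346, 0.362 and 0.356 in the knockouts (exact two-sided permutation p = 0.1, the smallest possible). That drop rested on Nfkbiz. For Nfkbia and Nfkbie alone, with the exon union as the length, the ratio was 0.305 ± 0.0194 in controls and 0.299 ± 0.00931 in knockouts. That difference was within the spread of the controls (exact permutation p = 0.7). This sum was chosen after the data were seen, and no other length was tried for it.

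Tnfaip3 encodes A20, the ubiquitin-editing enzyme that shuts off signalling from TNF and Toll-like receptors to the IkB kinases. It had the largest change of the 10 genes. The controls stood at 82.2, 80.1 and 79.1 CPM and the knockouts at 264, 261 and 266 CPM, a rise of 3.28-fold (1.71 ± 0.03, adjusted p = 3.20e-21). In counts this was 5345 over the 3 controls and 22813 over the 3 knockouts, and 2.42% of tested genes rose further. Rises of at least 2-fold were called for 6.25% of genes tested, and among the members Tnfaip3, Rel and Nfkbie reached that size. Ikbkb, which encodes IKK-beta, the catalytic subunit that phosphorylates IkB in the classical branch, measured 71.7, 69.8 and 69.4 CPM in the controls and 57.5, 56.2 and 53.7 CPM in the knockouts. The knockout mean was 79.4% of control (-0.33 ± 0.04, adjusted p = 1.09e-07).

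**Figure D3:**
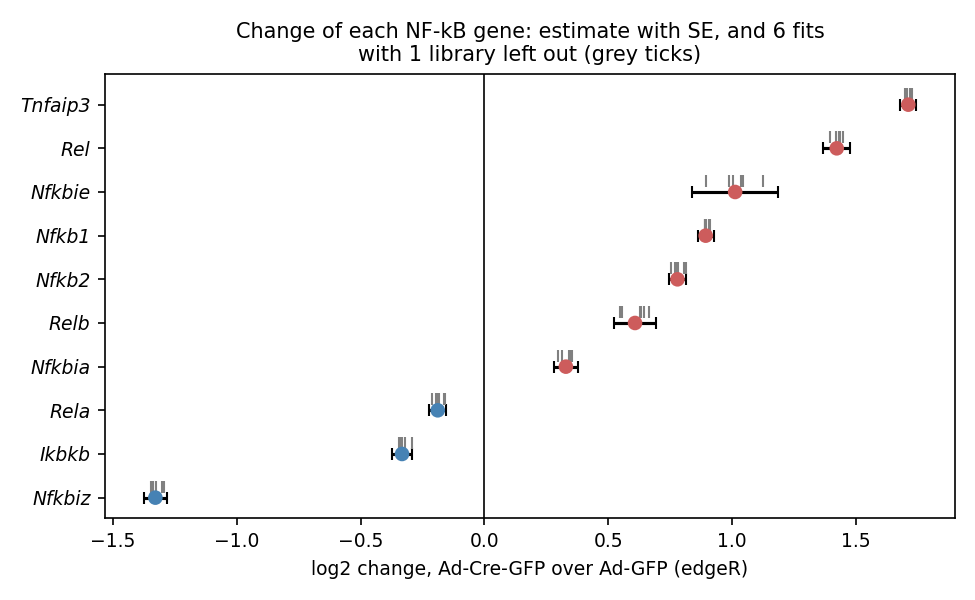
Log2 change of each gene, Ad-Cre-GFP over Ad-GFP (horizontal axis), from edgeR: estimate with standard error (coloured points with bars) and the 6 estimates with 1 library left out (grey ticks). Changes run from 1.71 for Tnfaip3 to -1.33 for Nfkbiz, and no left-out library brings any estimate across 0.

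The order of the members changed accordingly. Per kilobase of annotated exon, Rela led in the controls (35.9 ± 1.17 CPM per kilobase), followed by Nfkb2 (20.1 ± 0.644) and Nfkbia (19.7 ± 0.743), whose libraries overlapped. Nfkbiz (12.0 ± 0.390) and Tnfaip3 (11.1 ± 0.218) came next, and Nfkbie was last (0.481 ± 0.0210). In the knockouts Tnfaip3 led (36.5 ± 0.396), followed by Nfkb2 (34.5 ± 0.952), Rela (31.5 ± 0.432) and Nfkbia (24.6 ± 0.558). Nfkbiz (4.79 ± 0.184) and Rel (4.69 to 4.79) overlapped there. With the longest transcript as the length, Rela also led in the controls (40.6 ± 1.33). Tnfaip3 then had the highest mean in the knockouts (42.5 ± 0.461), where its libraries overlapped those of Nfkb2 (41.2 ± 1.13). Lower places depended on the length used. On this scale Nfkb1 (18.3) came after Nfkbia in the controls, and Tnfaip3 (13.0) lay below Nfkbiz (14.7) and Ikbkb (14.5). In the knockouts Nfkb1 (34.1), and not Nfkbia (25.1), followed Rela.

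Without Ad-GFP replicate 3 the log2 changes were 1.70 for Tnfaip3, 1.45 for Rel, 0.89 for Nfkb1, 0.78 for Nfkb2, 0.63 for Relb, 0.34 for Nfkbia and 1.04 for Nfkbie. Nfkbiz was then at -1.35, Ikbkb at -0.34 and Rela at -0.20. All 10 remained called in each of the 6 fits that left out 1 library.

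Other genes of the pathway were read from lists by role, 111 genes in all, of which 90 were tested. Of these, 35 rose, 39 fell and 16 were not called (82.2% called), with a median log2 change of -0.07. Over all genes tested 69.8% were called, 34.0% higher and 35.8% lower, with a median of -0.01. The counts of each list below stand against the same background.

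The other kinase genes went both ways. Of 11 kinases and their partners, 5 rose, 5 fell and Tab3 was not called (median 0.08). Chuk, which encodes IKK-alpha, rose from 104 ± 0.614 to 128 ± 2.49 CPM, while Ikbkg, the regulatory subunit NEMO, fell from 84.5 ± 3.91 to 70.6 ± 0.678 CPM. The 3 genes of the IkB kinase complex therefore did not move in 1 direction. Map3k3 rose by 0.56 ± 0.04 and the IKK-related kinase gene Ikbke fell (-0.73 ± 0.09, adjusted p = 1.56e-07). Tab1, an activator of the kinase TAK1, fell too (-0.26 ± 0.05, adjusted p = 0.000108). Among 6 further IkB-family and IkB-binding genes, 2 rose, 2 fell and 2 were not called, and 1 fell when Ad-GFP replicate 1 or 3 or Ad-Cre-GFP replicate 1 or 2 was left out. Bcl3, an atypical nuclear IkB like Nfkbiz, measured 31.2, 31.2 and 31.0 CPM in the controls and 6.57, 7.43 and 7.45 CPM in the knockouts (-2.12 ± 0.06, adjusted p = 1.58e-17). Nfkbib, the gene of IkB-beta, rose from 12.5 ± 1.41 to 17.4 ± 0.407 CPM, and Nkiras2, whose product binds IkB, rose by 0.20 ± 0.05.

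Receptors that feed the pathway included large changes in both directions. Of 14 tested, 4 rose, 6 fell and 4 were not called. Their median of -0.21 was loosely set, at -0.36 without Ad-Cre-GFP replicate 1, -0.04 without Ad-Cre-GFP replicate 2 and -0.14 without Ad-GFP replicate 1. Tnfrsf1a, the widely expressed TNF receptor, measured 159, 164 and 168 CPM in the controls and 70.6, 72.5 and 70.9 CPM in the knockouts (-1.20 ± 0.03, adjusted p = 2.71e-18). Tnfrsf1b, the second TNF receptor, fell from 86.0 ± 1.59 to 12.7 ± 0.491 CPM, 6.78-fold lower. The interleukin-1 receptor gene Il1r1 fell from 6.46 ± 0.860 to 0.991 ± 0.281 CPM, 6.52-fold lower. Tlr6 rose from 3.62 ± 0.538 to 10.1 ± 0.685 CPM. Tlr1 had the largest absolute log2 change of the list, a rise from 0.257 ± 0.150 to 2.12 ± 0.109 CPM (2.94 ± 0.29). It rested on 18 counts over the controls and 183 over the knockouts. Tlr5, Cd40, Tnfrsf13c and Edar had at most 5 counts in any library and were not tested.

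Of 24 tested adaptors and ubiquitin ligases, 7 rose, 13 fell and 4 were not called (median -0.25). Ticam1, the adaptor TRIF of Toll-like receptors, fell from 25.9 ± 1.90 to 12.3 ± 0.842 CPM, and the kinase gene Irak4 from 12.9 ± 1.22 to 7.74 ± 0.623 CPM. The scaffold gene Card10 rose from 38.6 ± 3.91 to 78.2 ± 1.48 CPM and Pidd1, a scaffold of DNA damage signalling to NEMO, from 10.4 ± 1.01 to 20.7 ± 0.896 CPM. Birc3, which encodes the ubiquitin ligase cIAP2 and is itself a target of NF-kB, rose from 2.65 ± 0.327 to 5.32 ± 0.103 CPM. Negative regulators other than the members split as well, with 6 higher, 8 lower and 3 not called of 17 tested. Tnip3, which encodes a partner of A20, had 358 counts over the controls and 50 over the knockouts, 9.31-fold lower in CPM (-3.21 ± 0.17, adjusted p = 3.57e-13), against the rise of Tnfaip3 itself. Another partner, Tnip2, fell by a smaller amount (-0.57 ± 0.09). Cyld, a deubiquitinase of the pathway, rose from 134 ± 1.52 to 187 ± 2.28 CPM, the phosphatase gene Dusp14 by 1.22 ± 0.07, and Pdlim2, which encodes a nuclear factor that promotes degradation of p65, from 2.29 ± 0.251 to 19.5 ± 0.261 CPM.

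Textbook target genes of NF-kB went in both directions. Of 35 listed, 20 were tested, and 12 rose, 6 fell and 2 were not called, with a median log2 change of 0.63. With a mean of at least 1 CPM required, 17 were tested, 9 higher and 6 lower with a median of 0.24, and thinned libraries gave the same numbers of genes with a median of 0.23. Genes such as Ccl20 passed the filter on low counts only through the knockout libraries, so this count is not taken as support for a direction. Ccl20 had 0 counts in every control and 70, 69 and 55 counts in the knockouts, at least 48.4-fold higher when 3 counts are allowed over the control group. The other 4 of the 5 largest changes among targets with a mean of at least 1 CPM were falls. The complement gene C3 fell from 20.7 ± 2.45 to 3.42 ± 0.101 CPM and the hyaluronan-binding protein gene Tnfaip6 from 25.9 ± 1.52 to 5.87 ± 0.549 CPM. The adhesion molecule gene Vcam1 measured 71.4, 67.3 and 78.0 CPM in the controls and 14.5, 15.2 and 15.2 CPM in the knockouts, and the neutrophil chemokine gene Cxcl1 48.0, 50.6 and 55.2 CPM against 11.5, 10.8 and 11.0 CPM. Ccl2, a monocyte chemokine gene, rose from 4.87 ± 0.334 to 13.1 ± 1.04 CPM. Gadd45b, a stress-response gene, rose from 115 ± 2.88 to 270 ± 0.752 CPM, and Ptgs2, the gene of cyclooxygenase-2, rose from 205 ± 3.31 to 345 ± 15.3 CPM (mean ± SD, n = 3). Below a mean of 1 CPM, Ccl5 had 0 counts over the controls and 38 over the knockouts, at least 9.48-fold higher, and Cxcl10 had 1 and 58 counts. These 5 genes were chosen after their values were seen. Tnf, Il1b and Cxcl2 had 0 counts in all 6 libraries, which allows up to 0.0990 to 0.161 CPM, and Il6 had 1 count over the controls and 20 over the knockouts, too few to test.

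**Figure D4:**
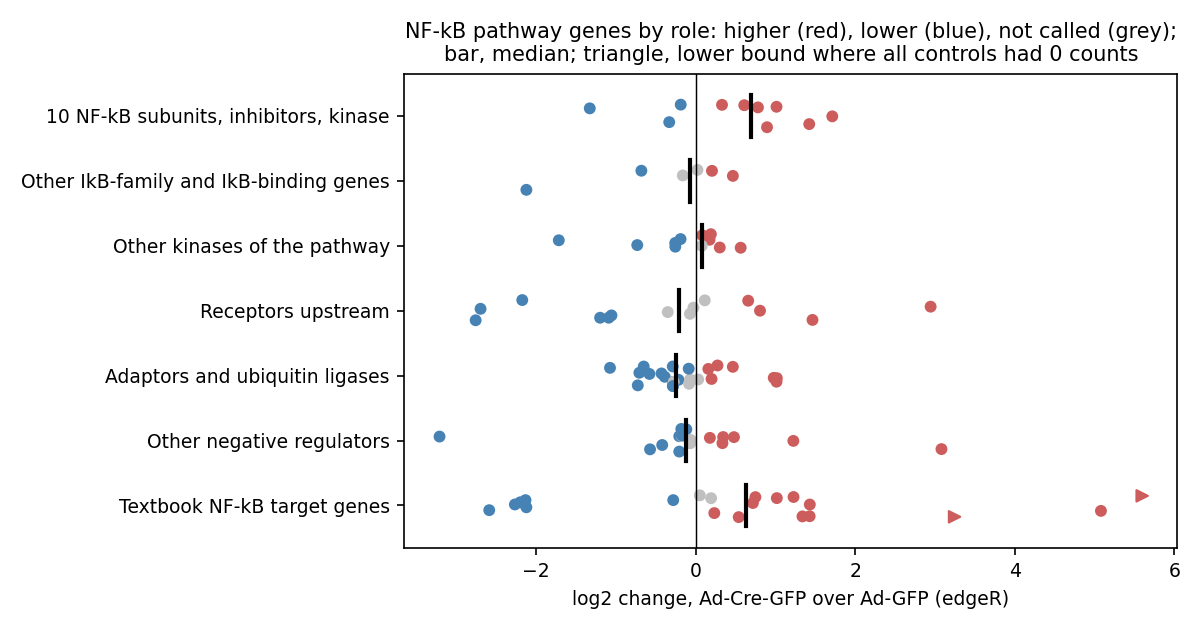
Log2 change, Ad-Cre-GFP over Ad-GFP (horizontal axis, edgeR), of each tested gene by role in the pathway: higher (red), lower (blue) or not called (grey), with the median as a black bar. Triangles are lower bounds for genes with 0 counts in every control. The median is 0.69 for the 10 members, 0.63 for the target genes (0.24 where 1 CPM or more is required on average) and between -0.25 and 0.08 for the other lists.

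Among these other genes, both directions occurred with and without the kappaB consensus in a promoter window. Of the 19 tested genes with a match in a window, 8 rose, 9 fell and 2 were not called, and of 56 with a window but no match, 23 rose, 23 fell and 10 were not called. Ccl20 and Cxcl1 both had a match and moved in opposite directions, and so did Cyld, which rose, and Bcl3 and Tnip3, which fell. The 5 members with a match, shown above, rose, and Rela, the only member with a window and no match, fell. Of the members without a window, Nfkb1 and Relb rose, and Nfkbiz and Ikbkb fell. Among all genes tested 34.0% were called higher, and the members were chosen with earlier results known. Any part of the matches in these changes was not tested.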

How the data were processed

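The authors deposited raw counts per gene, as whole numbers, in a table whose 6 columns carry the names of BAM files, per the file headers. GRCm38, kallisto 0.46.2 and sleuth 0.30.1 are named in the submitters' processing notes. For the aligner, counter, strand setting and annotation release, the entry is: not given in the sources used here.

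Gene IDs were matched without version to GENCODE mouse release M21 (GRCm38), and 48058 of 48440 matched. The unmatched 382 held 0.0381% of counts. Replicate pairs differed by more than sampling noise (chi-square per gene 2.04 to 4.27), and none was merged. Whether replicates were separate cultures is not in the labels, and p-values then cover only the spread between these samples, possibly technical.

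After filterByExpr and TMM scaling, genes were tested in edgeR 4.0.16 (robust quasi-likelihood test, no replicate block, R 4.3.3), with adjustment over all 14811 genes tested. Standard errors are the log2 change divided by the square root of F. The procedure was run on simulated data with few changed genes, balanced in direction. That setting differs from these data, in which 69.8% of genes were called. Levels per kilobase used the union of annotated exons. No near-identical copies of member transcripts were found with minimap2 2.31 (at least 200 bases at 90% identity) other than the genes that overlap Nfkb2.

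The members and lists were chosen with earlier results of these data known. Named beside the members were Lats1, Lats2 and, in each list, up to 5 called genes with the largest change and a mean of at least 1 CPM. Further names were chosen with their values in view. The alternatives comprised DESeq2 1.42.0 and its size factors, limma-voom (limma 3.58.1), upper-quartile scaling, testing every gene with a count, testing genes with a mean of 1 CPM or more, non-robust dispersion, a replicate block, thinned libraries, each library left out, and other lengths. No protein sequences were used here. A floor of 3 counts covers counting error only.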

Additional observations from a re-analysis of the deposited data

How the results depend on the processing

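For the 10 members, all 150 estimates under the 15 alternative fits kept their direction and stayed called, with Tnfaip3 between 1.70 and 1.73, Rel between 1.39 and 1.49, Nfkbiz between -1.35 and -1.29, Rela between -0.21 and -0.16 and Nfkbie between 0.90 and 1.13 on the log2 scale. The total of called genes in each list stayed within 1.5 times of the main total. Among the 6 other IkB-family genes the lower calls went from 2 to 1 with no filter on low counts, a mean of at least 1 CPM, DESeq2, thinned libraries, and without Ad-GFP replicate 1 or 3 or Ad-Cre-GFP replicate 1 or 2. List medians moved more. Over the alternatives they ran from 0.23 to 0.76 for target genes, -0.36 to -0.04 for receptors, -0.26 to -0.16 for adaptors and ligases, -0.13 to -0.10 for negative regulators and 0.05 to 0.09 for kinases. The list median of the 6 other IkB-family genes changed sign. It ran from -0.11 without Ad-Cre-GFP replicate 1 to 0.03 at a mean of at least 1 CPM. The scaling of all genes moved the median log2 change by less than 0.1. Deviations of same-numbered libraries correlated weakly, at 0.05, 0.05 and 0.01. For replicates 1 and 2 these were the highest correlations of either library with the other group. Ad-GFP replicate 3 correlated best with Ad-Cre-GFP replicate 2 (0.02). Such weak correlations cannot show whether same-numbered libraries shared a culture. With the replicate block all 10 members were called and 10478 genes in all, against 10344.

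Subunit shares depended on the length used. With the longest transcript the differences, in percentage points, were 7.48 for Nfkb1, 6.97 for Nfkb2, -16.7 for Rela and 1.94 for Rel. With plain CPM they were 6.44, 4.90, -15.0 and 3.55 in that order. For Relb the plain CPM difference was 0.0787, and the groups overlapped (exact permutation p = 0.7). Only the length was changed. The inhibitor ratio difference, -0.131, was -0.161 with plain CPM and -0.0058 without Nfkbiz. That last alternative was added after seeing the data and used the exon union only. Leaving out each library gave -0.142 to -0.122. Depth limits Nfkbie most, with 29 to 102 counts per library.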
